A study of Mus musculus with 4 samples.

Results

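Hba-a1, Hba-a2, Hbb-bs, Hbb-bt and Alas2 were the genes examined, 5 of the 31600 features in a deposited RNA-seq table of mouse spermatogonial stem cells. They were picked by symbol as a readout of red blood cell RNA carried into the libraries, and were selected on the FPKM values of these same libraries, which were already known to be higher in control. Their difference between the groups is therefore given as a description, with no test. The series held 2 control libraries, whose genotype label was WT, and 2 libraries of a group titled Differ, whose genotype label was Differentiation and which is called differentiation here. TRIzol was used to extract total RNA for all 4, and ribosomal RNA was removed before sequencing. The strain and age of the mice, whether the cells were cultured, and how or for how long they differentiated were not stated in the labels used here. Nor do the labels tell if both libraries of a group are separate cultures or mice, so their spread may be technical.

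Haemoglobin of adult mice is a tetramer of alpha and beta globin chains around heme, and each chain type is encoded by a pair of neighbouring gene copies. Hba-a1 and Hba-a2 encode alpha globin, and Hbb-bs and Hbb-bt are the s and t beta globin genes of the single haplotype of strains such as C57BL/6. Alas2, on the X chromosome, encodes the erythroid aminolevulinate synthase that starts heme synthesis in developing red cells. Globin messenger RNA is very abundant in young red cells and persists in reticulocytes after the nucleus is lost, so it is a common sign of blood in tissue preparations. Spermatogonia are not known as haemoglobin producers.

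The copies of each chain are so alike that the split of fragments between them is uncertain. The coding sequences of Hba-a1 and Hba-a2, each 429 bases long, differed at 1 base (C381T, Hba-a1 first, counted from the first coding base), an identity of 99.8%. Those of Hbb-bs and Hbb-bt, each 444 bases long, differed at 1 base (C417T, Hbb-bs first), also an identity of 99.8%. The stretches around these bases (coding bases 349 to 408 for alpha and 385 to 444 for beta, GENCODE M21 on GRCm38, 5′ to 3′) are shown because a fragment that covers no such base cannot be placed from coding sequence. Capitals mark the base that differs.
Hba-a1: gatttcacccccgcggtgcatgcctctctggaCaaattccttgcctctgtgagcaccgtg
Hba-a2: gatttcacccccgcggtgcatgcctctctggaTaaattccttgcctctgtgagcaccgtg
Hbb-bs: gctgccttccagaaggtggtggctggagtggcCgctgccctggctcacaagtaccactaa
Hbb-bt: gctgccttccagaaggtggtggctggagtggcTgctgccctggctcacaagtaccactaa
Alpha and beta chains were far less alike, with 57.8% identity between Hba-a1 and Hbb-bs over aligned coding bases. Of all stretches of 100 bases in the transcripts of Hba-a1, 450 of 711 (63.3%) also occurred in Hba-a2. For Hba-a2, 450 of 566 (79.5%) occurred in Hba-a1, which left 116 that could name it. In the beta pair 331 of 666 stretches of Hbb-bs (49.7%) and 331 of 604 of Hbb-bt (54.8%) were shared. None of the 2398 stretches of Alas2 was found in another transcript, so its values do not have this limit. What the authors did with fragments that match several places was not stated in the labels used here.

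The RefSeq table (GRCm38.p6) held the start region of all 5 genes, and the 250 bases before the start are printed for 4 of them as a description. Whether these sequences had a part in the difference between the groups was not tested. Capitals mark matches to 4 motifs on either strand. The first is CCAAT, which reads ATTGG on the other strand and spells the box of that name. The second is CACCC, which reads GGGTG on the other strand and resembles the sites of erythroid Krüppel-like factor. The third is TATAA, with TTATA as its other strand, which resembles the box that places the start of transcription. The fourth is GATA, with TATC as its other strand, which is the core bound by the factors named after it. The regions are chr11:32283422-32283671 on the plus strand for Hba-a1, chr7:103827929-103828178 on the minus strand for Hbb-bs, chr7:103813924-103814173 on the minus strand for Hbb-bt and chrX:150547167-150547416 on the plus strand for Alas2.
Hba-a1: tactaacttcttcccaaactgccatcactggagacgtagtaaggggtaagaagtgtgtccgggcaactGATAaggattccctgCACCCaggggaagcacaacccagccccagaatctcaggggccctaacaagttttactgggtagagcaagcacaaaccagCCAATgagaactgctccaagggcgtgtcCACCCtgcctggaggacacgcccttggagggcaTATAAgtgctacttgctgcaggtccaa
Hbb-bs: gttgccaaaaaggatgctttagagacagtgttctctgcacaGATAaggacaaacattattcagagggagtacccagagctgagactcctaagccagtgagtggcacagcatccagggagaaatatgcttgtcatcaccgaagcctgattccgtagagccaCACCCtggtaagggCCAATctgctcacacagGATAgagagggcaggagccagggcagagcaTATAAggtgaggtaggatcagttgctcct
Hbb-bt: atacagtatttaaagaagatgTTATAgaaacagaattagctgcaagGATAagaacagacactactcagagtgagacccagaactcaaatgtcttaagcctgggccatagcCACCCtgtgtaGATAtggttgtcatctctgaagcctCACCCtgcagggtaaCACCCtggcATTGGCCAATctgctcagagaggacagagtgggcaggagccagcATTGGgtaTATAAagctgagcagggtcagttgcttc
Alas2: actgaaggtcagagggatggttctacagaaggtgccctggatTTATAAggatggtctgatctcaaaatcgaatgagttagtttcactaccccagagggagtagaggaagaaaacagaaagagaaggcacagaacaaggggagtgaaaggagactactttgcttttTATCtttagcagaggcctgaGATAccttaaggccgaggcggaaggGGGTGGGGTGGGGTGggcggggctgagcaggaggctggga
The region of Hba-a2 is not printed, since a run of 297 bases was shared by the 300-base windows (250 before and 50 after the start) of Hba-a1 and Hba-a2. The longest run shared by Hbb-bs and Hbb-bt was 14 bases. In the 4 globin genes TATAA began at -27 (Hba-a1), -30 (Hba-a2), -29 (Hbb-bs) and -28 (Hbb-bt) from the start, and CCAAT on the coding strand at -88, -91, -76 and -75. Alas2 held no CCAAT, its TATAA lay far upstream at -207, overlapping TTATA, and its 3 matches to GGGTG stood in a row from -40 to -30. Among 32851 promoters of the same length, CCAAT was found in 33.8%, CACCC in 52.0%, TATAA in 22.8% and GATA in 53.6%. All 4 motifs were found together in 2.15% of promoters and in each of the 4 globin genes. A match is a stretch of letters, and binding was not measured.

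The FPKM values, fragments scaled to exon length and to library depth, corresponded to between 17771963 and 20650213 fragments a library. At these depths 96.2% of the features under 300 fragments came out as whole numbers within 0.05. Fragment numbers of the 5 genes below are such recovered values, which lay within 0.0243 of a whole number. Features with ribosomal-RNA-like sequence took 20.8% to 22.6% of fragments in control and 17.7% to 18.3% in differentiation. The summed FPKM of 12 markers of undifferentiated spermatogonia, was 132 and 134 in control and 45.1 and 45.4 in differentiation. Of these 12 markers, all tested, 9 fell and 1 rose at a limma adjusted p under 0.05, beside 27.0% of all features tested that fell and 29.6% that rose. Zbtb16 and Gfra1 were among those that fell, and Id4 rose, from 3.00 and 2.89 to 12.3 and 12.6 FPKM. The summed FPKM of 9 germ cell genes was 802 and 791 in control and 1650 and 1662 in differentiation. Of these 9, all tested, 7 rose at the same threshold, Ldhc among them, and 2 fell, beside the same 29.6% and 27.0%. Those that fell were Kit (30.4 and 31.6 to 7.73 and 7.65 FPKM) and Stra8 (241 and 233 to 139 and 141 FPKM). Germ cell RNA was thus present in all 4 libraries. In such bulk RNA, fewer cells of a type and less RNA per cell cannot be told apart.

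Beta globin RNA was the most abundant. Hbb-bs (ENSMUSG00000052305, 7:103826534-103828096, minus strand) had 421 and 408 FPKM in control 1 and 2 and 86.7 and 76.0 FPKM in differentiation 1 and 2. Both control libraries stood far above both differentiation libraries. In control it ranked 25 of all features in both libraries, and in differentiation 204 and 245. The means were 415 ± 9.16 FPKM (SD, n = 2) in control and 81.4 ± 7.58 FPKM (SD, n = 2) in differentiation, 5.10-fold higher in control. Hbb-bs still ranked among the more abundant RNAs of the differentiation libraries. The counts behind these levels were 6297, 6476, 1184 and 1189 fragments. Hbb-bs was also the only one of the 5 genes whose replicates differed by more than counting error: differentiation 1 was 1.14 times differentiation 2 (95% exact interval 1.05 to 1.24). In control the same ratio was 1.03 (0.996 to 1.07). All intervals here, exact Poisson or exact binomial (Clopper-Pearson), cover counting error only.

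The other beta globin gene, Hbb-bt (ENSMUSG00000073940, 7:103812524-103813996, minus strand), had 13.7 and 14.3 FPKM in control and 2.80 and 2.10 FPKM in differentiation. The groups did not overlap. Its means were 14.0 ± 0.418 FPKM (SD, n = 2) and 2.45 ± 0.499 FPKM (SD, n = 2), 5.70-fold higher in control. The counts were 187, 207, 35 and 30 fragments, so the differentiation values carried counting intervals of 1.95 to 3.90 and 1.41 to 2.99 FPKM. Those intervals overlap each other and lie far below the control intervals, the lowest bound of which was 11.8 FPKM.

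Hba-a1 (ENSMUSG00000069919, 11:32283511-32284465, plus strand) carried nearly all fragments assigned to alpha globin. Its levels were 82.5 and 88.5 FPKM in control and 13.5 and 14.3 FPKM in differentiation, from 1303, 1484, 195 and 237 fragments. Both control libraries were high and both differentiation libraries low, with no overlap. The means were 85.5 ± 4.28 FPKM (SD, n = 2) and 13.9 ± 0.580 FPKM (SD, n = 2), 6.14-fold higher in control. Hba-a1 ranked 226 and 199 among all features in control and 3970 and 3688 in differentiation.

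Hba-a2 (ENSMUSG00000069917, 11:32296489-32297298, plus strand) lay near the bottom of what these libraries could measure, with 1.39 and 2.03 FPKM in control and 0.169 and 0.295 FPKM in differentiation. Only 18 and 28 control fragments, and 2 and 4 differentiation fragments, stood behind these levels. The groups did not overlap. The means were 1.71 ± 0.457 FPKM (SD, n = 2) and 0.232 ± 0.0889 FPKM (SD, n = 2), and the control to differentiation ratio of pooled levels was 7.29, with an interval of 3.11 to 20.9. Its level is uncertain for a further reason, the shared sequence shown above: GENCODE starts Hba-a1 161 bases and Hba-a2 3 bases upstream of the RefSeq start. Of the 261 stretches of 100 bases found only in Hba-a1, 115 lay in the RefSeq start window of Hba-a2. Fragments of either gene from that stretch could thus be listed under Hba-a1. The low level listed under Hba-a2 is therefore no measure of how much of the alpha globin RNA came from it.

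Alas2 (ENSMUSG00000025270, X:150547375-150570638, plus strand) had 6.74 and 6.93 FPKM in control and 2.04 and 2.15 FPKM in differentiation, from 315, 344, 87 and 105 fragments. The libraries of each group lay close together and the groups did not overlap. Its means were 6.83 ± 0.139 FPKM (SD, n = 2) and 2.09 ± 0.0768 FPKM (SD, n = 2), 3.27-fold higher in control. Alas2 thus had the smallest control to differentiation ratio of the 5 genes, and it is the only one free of near-identical copies.

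**Figure D1:**
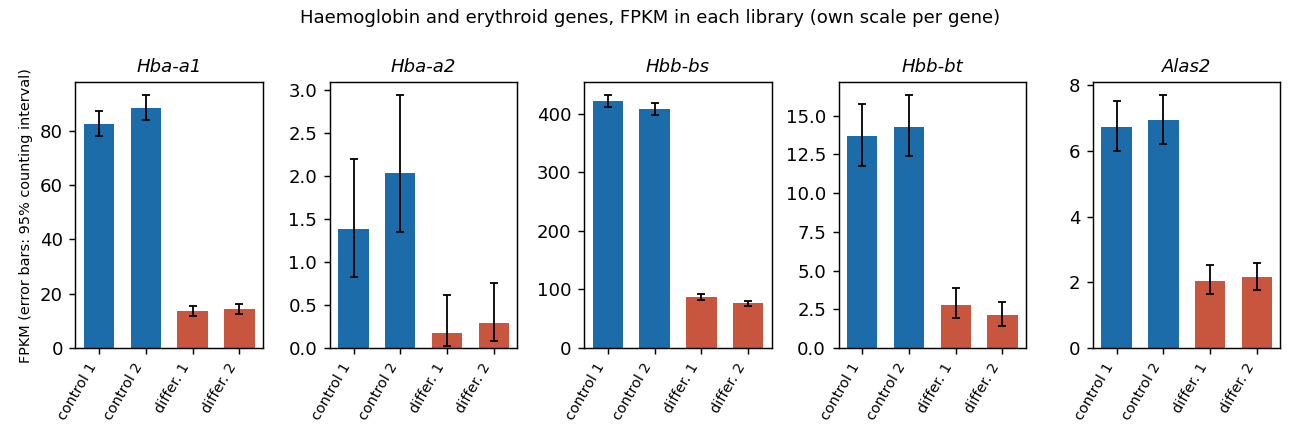
FPKM of the 5 genes in each library (bars, own linear axis per gene starting at 0), with 95% exact Poisson counting intervals as error bars. Both control bars exceed both differentiation bars for every gene, from 421 and 408 against 86.7 and 76.0 FPKM for Hbb-bs to 1.39 and 2.03 against 0.169 and 0.295 FPKM for Hba-a2.

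For all 5 genes both control libraries lay above both differentiation libraries, as they did for 39.1% of the 23138 features tested (mean FPKM of at least 0.5, which all 5 passed). Nothing is read from that count, since the genes were chosen on this contrast. The differences in log2(FPKM + 1), differentiation minus control, were -2.53 for Hba-a1, -2.34 for Hbb-bs, -2.12 for Hbb-bt, -1.34 for Alas2 and -1.13 for Hba-a2. Their median was -2.12, beside 0.01 over all features tested. A difference at least as low was found in 0.0562% of tested features for Hba-a1, 0.121% for Hbb-bs, 0.190% for Hbb-bt, 1.63% for Alas2 and 3.12% for Hba-a2. These shares describe size only and are no test, since genes chosen for being higher in control must rank low here. The added 1 FPKM understates the change of low genes: with 0.1 FPKM added instead, Hba-a2 had -2.45 in place of -1.13, close to the -2.48 of Hbb-bt. The authors' deposited table gave log2 fold changes of -2.62 for Hba-a1, -2.87 for Hba-a2, -2.35 for Hbb-bs, -2.52 for Hbb-bt and -1.71 for Alas2.

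Alas2 lay apart from the 3 better measured globin genes by more than counting error. The ratio of pooled levels, control over differentiation, was 6.13 (5.54 to 6.80) for Hba-a1, 5.12 (4.90 to 5.35) for Hbb-bs and 5.76 (4.42 to 7.61) for Hbb-bt. For Alas2 it was 3.26 (2.77 to 3.85), below the lower bound of each of these. The interval of Hba-a1 also lay above that of Hbb-bs, while that of Hbb-bt overlapped both. These intervals hold no spread between cultures or animals.

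The order of levels per length was Hbb-bs, Hba-a1, Hbb-bt, Alas2 and Hba-a2 in 3 of 4 libraries. In differentiation 2, Alas2 with 2.15 FPKM stood just above Hbb-bt with 2.10 FPKM, and their counting intervals of 1.76 to 2.60 and 1.41 to 2.99 FPKM overlapped. The same neighbours also overlapped in differentiation 1, at 2.04 and 2.80 FPKM. No other neighbours in the order exchanged places. Together the 5 genes took 0.0408% and 0.0413% of all fragments in control and 0.00815% and 0.00750% in differentiation, from 8120, 8539, 1503 and 1565 fragments in all.

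Summing the copies leaves the split between them aside, but not fragments that may have been dropped for matching both, and the alpha pair shares more of its sequence than the beta pair. Alpha globin then had 83.8 and 90.5 FPKM in control and 13.7 and 14.6 FPKM in differentiation, and beta globin 435 and 423 FPKM in control and 89.5 and 78.1 FPKM in differentiation. Beta exceeded alpha in every library, by 5.19 and 4.67 times in control and 6.55 and 5.34 times in differentiation. The alpha to beta ratio was 0.193 and 0.214 in control and 0.153 and 0.187 in differentiation, so the groups did not overlap, but control 1 and differentiation 2 were close. Its means were 0.203 ± 0.0152 (SD, n = 2) and 0.170 ± 0.0244 (SD, n = 2). With 2 libraries against 2, an exact permutation test could not go below p = 0.33, and none was run.

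Within the beta pair, Hbb-bt took 2.88% (2.49 to 3.32) and 3.10% (2.70 to 3.54) of fragments in control and 2.87% (2.01 to 3.97) and 2.46% (1.67 to 3.49) in differentiation. The share differed by less than counting error between the libraries. Hba-a2 took 1.36% (0.810 to 2.14) and 1.85% (1.23 to 2.67) of alpha globin fragments in control and 1.02% (0.123 to 3.62) and 1.66% (0.454 to 4.19) in differentiation. These intervals also overlapped throughout. Alas2 took 3.88% (3.47 to 4.32) and 4.03% (3.62 to 4.47) of the fragments of the 5 genes in control. In differentiation it took 5.79% (4.66 to 7.09) and 6.71% (5.52 to 8.06), above both control intervals. Per 100 FPKM of globin, Alas2 had 1.30 and 1.35 FPKM in control and 1.97 and 2.31 FPKM in differentiation. Globin RNA thus differed more between the groups than Alas2 RNA did.

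**Figure D2:**
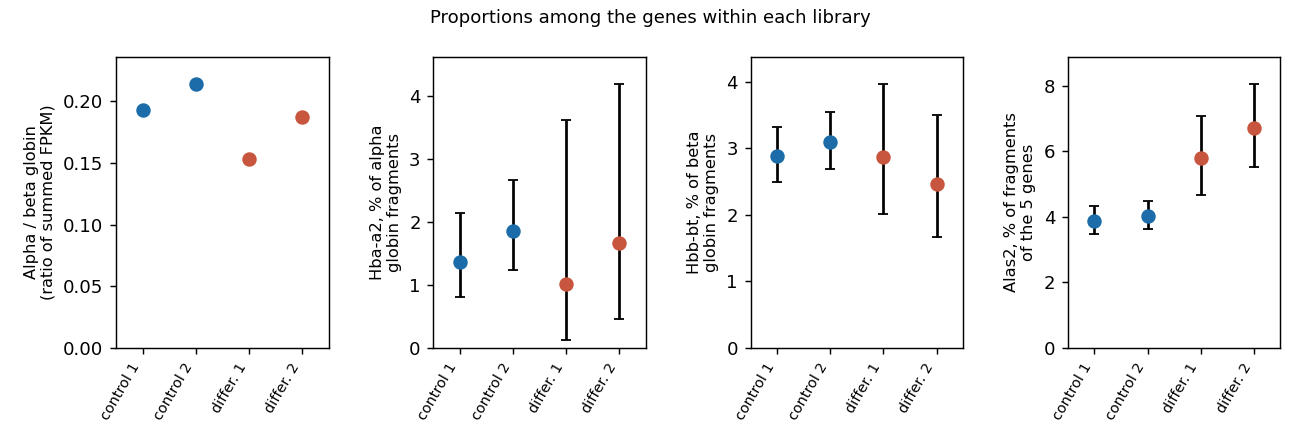
Proportions among the 5 genes in each library: the ratio of summed alpha to summed beta globin FPKM, and the shares of Hba-a2, Hbb-bt and Alas2 in percent of fragments, with 95% exact binomial intervals as error bars on the shares. The shares of both copies overlap between groups in counting error, while Alas2 takes 3.88% and 4.03% in control and 5.79% and 6.71% in differentiation.

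Of 13 other globins listed, the table used here held 3, and the embryonic globins were not analysed here. Cygb, cytoglobin, which is found in fibroblast-like cells, had 4.65 and 4.42 FPKM in control and 1.57 and 1.92 FPKM in differentiation. It fell by 1.02 on the log2(FPKM + 1) scale (limma adjusted p = 2.28e-03). Ngb, the neuronal globin, had 1.91 and 1.32 FPKM in control and 1.73 and 1.57 FPKM in differentiation (limma adjusted p = 0.887). Mb, the muscle globin, was too low to test, with 11 and 1 control fragments against 4 and 6. A single globin pseudogene, Hba-ps4 (17:26286363-26287061), was looked at after its values were seen. It had 6.67 and 6.72 FPKM in control and 7.55 and 7.69 FPKM in differentiation, and shared no stretch of 50 bases with the 5 genes.

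Several genes that define red cells, other than globins and Alas2, were near the lowest measurable levels in all 4 libraries. The anion exchanger gene of the red cell membrane, Slc4a1, was seen in 23 and 15 control fragments, against 13 and 29 for differentiation. Epb42, a protein of the membrane skeleton, was seen in 10 and 3 control fragments, against 9 and 20 for differentiation. Both overlapped between the groups, while each of the 5 genes did not. Rhag, the Rh-associated glycoprotein, was seen in 7 and 12 control fragments, against 2 and 4 for differentiation. It thus lay higher in both control libraries, at levels of at most 0.248 FPKM. Ahsp, the alpha globin chaperone, and Car1 were not analysed here.

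Across the list of red cell membrane and enzyme genes, 22 of 26 were in the table used here and 11 were high enough to test. Of these, 4 fell and 0 rose at a limma adjusted p under 0.05, beside 27.0% of all features tested that fell and 29.6% that rose. Their median log2(FPKM + 1) difference was -0.20, and their summed FPKM was 31.5 and 32.7 in control and 25.5 and 27.6 in differentiation. The 4 that fell were Aqp1, a water channel (-0.66, adjusted p = 0.0115), Add2, an adducin (-0.49, 0.0139), Rhd (-0.59, 0.0198) and Sptb, beta spectrin (-0.34, 0.0251). Each call was lost without at least 1 library: Sptb without any of the 4 (adjusted p 0.0617 to 0.112), Add2 without control 1, control 2 or differentiation 2 (up to 0.0708), Rhd without control 2, differentiation 1 or differentiation 2 (up to 0.0969), and Aqp1 without either differentiation library (up to 0.0671). Not called were Gypc, glycophorin C (2.34 and 2.10 against 1.52 and 2.00 FPKM, limma adjusted p = 0.204), Ank1, ankyrin (1.89 and 2.01 against 2.06 and 1.99 FPKM, 0.754), Car2 (1.06 and 0.760 against 0.813 and 0.547 FPKM, 0.332) and Bpgm, which makes bisphosphoglycerate (4.90 and 5.53 against 5.38 and 5.84 FPKM, 0.403). On this scale no tested gene of the list fell by more than 0.66, but the added 1 FPKM weighs on such low genes: the difference of Add2 was -1.05 with 0.1 FPKM added, and in a limma-voom fit on recovered fragments that of Add2 was -1.24 and that of Aqp1 -1.09.

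All 12 erythroid transcription factor and receptor genes listed were in the table and 8 were tested. Of these, 1 fell and 2 rose, with a median difference of 0.09, beside the 27.0% of all features tested that fell and the 29.6% that rose. Gata1, the main erythroid GATA factor, which Sertoli cells of the testis also express, had 0.991 and 0.993 FPKM in control and 3.09 and 3.02 FPKM in differentiation. It rose by 1.03 on the log2(FPKM + 1) scale (limma adjusted p = 1.52e-03), the opposite direction to the globins. Its partner Zfpm1 rose from 4.87 and 4.76 to 9.08 and 9.77 FPKM (adjusted p = 9.39e-04). Ldb1, an adaptor of GATA factor complexes that many cell types express, fell from 22.9 and 24.2 to 9.25 and 11.3 FPKM (adjusted p = 1.69e-03). Klf1, the erythroid Krüppel-like factor, had 1.51 and 1.17 FPKM in control and 2.32 and 1.54 FPKM in differentiation (0.200). Epor, the erythropoietin receptor, had 0.672 and 0.852 FPKM in control and 0.679 and 0.839 FPKM in differentiation (0.990), and Tal1 had 15 and 11 fragments against 11 and 10. Together the lists of other globins, membrane genes and factors gave 6 lower genes, which became 3 without control 2 or without differentiation 1, and 2 without differentiation 2.

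**Figure D3:**
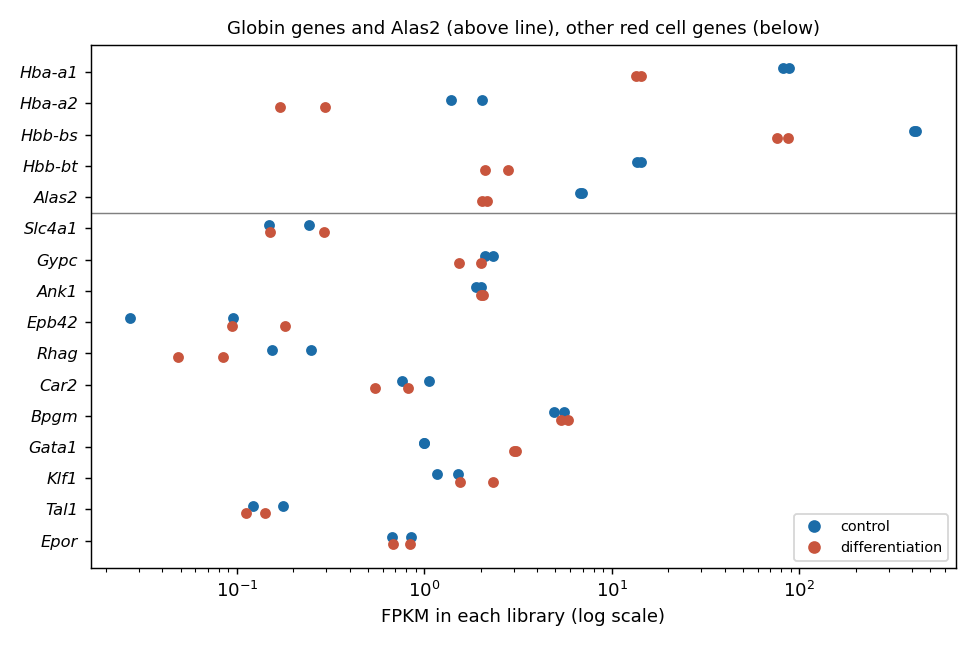
FPKM in each library (points, log axis) of the 5 genes, above the line, and of 11 other red cell genes, below it, with control in blue and differentiation in red. The globin genes and Alas2 separate by group, while Slc4a1, Epb42, Ank1 and Epor overlap and Gata1 is higher in differentiation.

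Heme synthesis in all cells uses the enzymes downstream of Alas1 and Alas2. The list of 8 enzymes held Alas1 and these downstream enzymes, and all were tested. Of the 8, 5 fell, Alas1 among them, and 0 rose, with a median difference of -0.41, beside 27.0% lower and 29.6% higher among all features tested. Cpox fell from 9.23 and 10.4 to 5.0 and 4.89 FPKM (limma adjusted p = 1.50e-03), Ppox from 3.76 and 3.64 to 1.56 and 1.73 FPKM (2.64e-03) and Alad from 28.9 and 30.7 to 22.6 and 20.2 FPKM (6.40e-03). Alas1, the form of the first enzyme used outside the red cell lineage, fell by 0.38 on the log2(FPKM + 1) scale, less than the 1.34 by which Alas2 differed. Fech, which inserts the iron, had 12.1 and 11.1 FPKM in control and 12.7 and 12.7 FPKM in differentiation (adjusted p = 0.119). Uros (adjusted p = 0.482) and Urod (0.0777) were not called either.

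Of 24 genes of iron and heme handling, 22 were tested, 12 fell and 3 rose, with a median difference of -0.26 (27.0% and 29.6% over all features tested). Hmox1, the heme oxygenase that breaks heme down, fell from 58.3 and 55.9 to 22.4 and 19.1 FPKM (limma adjusted p = 5.68e-04). Ftl1, the ferritin light chain, fell from 173 and 178 to 86.2 and 82.9 FPKM (1.82e-04), and Tfrc, the transferrin receptor, from 40.0 and 39.7 to 22.5 and 22.7 FPKM (1.95e-04). Slc25a39, a mitochondrial carrier, rose from 18.7 and 21.1 to 36.6 and 38.4 FPKM (1.11e-03). These genes are expressed by many cell types. On the log2(FPKM + 1) scale the difference of Hmox1, -1.42, was larger than those of Alas2 and Hba-a2 and smaller than those of the other 3 genes. That order rests on the added 1 FPKM, which weighs more on low genes. As a ratio of means, control over differentiation, Hmox1 had 2.75, below the 3.27 of Alas2 and the 7.38 of Hba-a2.

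Markers of other cells that blood or testis could bring moved in several directions beside the globins. Of 13 tested macrophage markers 12 fell and 1, Aif1, rose, with a median difference of -1.38, where 27.0% of all features tested fell and 29.6% rose. Lyz2, macrophage lysozyme, fell from 29.4 and 27.7 to 4.45 and 3.88 FPKM (limma adjusted p = 1.51e-04). Its log2(FPKM + 1) difference of -2.52 was close to the -2.53 of Hba-a1. Those of Ctss, C1qb and Tyrobp, which also fell, were -2.37, -1.82 and -1.73. The summed FPKM of all 15 macrophage markers was 90.8 and 88.7 in control and 22.8 and 22.7 in differentiation. Without either differentiation library the call of Aif1 was lost.

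Endothelial markers fell in 5 of 9 tested and rose in 0 (27.0% and 29.6% over all features tested), with summed FPKM of 24.9 and 24.7 in control and 14.4 and 12.9 in differentiation. Cdh5, the vascular cadherin, fell from 8.15 and 8.17 to 2.96 and 3.20 FPKM (limma adjusted p = 5.10e-04). Plvap fell by 0.73, a call lost without control 1 (0.0541).

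The counts for platelet, neutrophil and lymphocyte markers were small, and nothing is read from them beside the 27.0% of all features tested that fell and the 29.6% that rose. Of 8 tested platelet markers 2 fell and 3 rose, with summed FPKM of 18.3 and 19.8 in control and 20.8 and 20.7 in differentiation. Ppbp, a platelet chemokine, had 0.142 FPKM and 0 in control and 1.66 and 1.77 FPKM in differentiation, a rise of 1.34 (limma adjusted p = 1.52e-03). Itgb3, the platelet integrin beta chain, fell from 6.44 and 6.38 to 3.53 and 3.55 FPKM (1.43e-03). Gp5 fell and Itga2b rose, but the call of Gp5 was lost without control 1, control 2 or differentiation 1 (up to 0.102) and that of Itga2b without any of the 4 libraries (0.0570 to 0.108). Of 6 tested neutrophil markers 1 fell and 1 rose: Mmp9 fell by 1.24, and Lcn2, lipocalin, rose from 0.882 and 0.868 to 5.45 and 5.24 FPKM (3.62e-04). The summed neutrophil markers were 12.3 and 10.9 FPKM in control and 15.4 and 14.4 FPKM in differentiation. Of 5 tested lymphocyte markers 1 fell and 2 rose, all 3 calls being lost without at least 2 of the 4 libraries, and the sums were 6.45 and 5.81 FPKM in control and 6.51 and 5.15 FPKM in differentiation. The part of red cells, macrophages, vessels or any other cells in the globin difference was not tested.

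**Figure D4:**
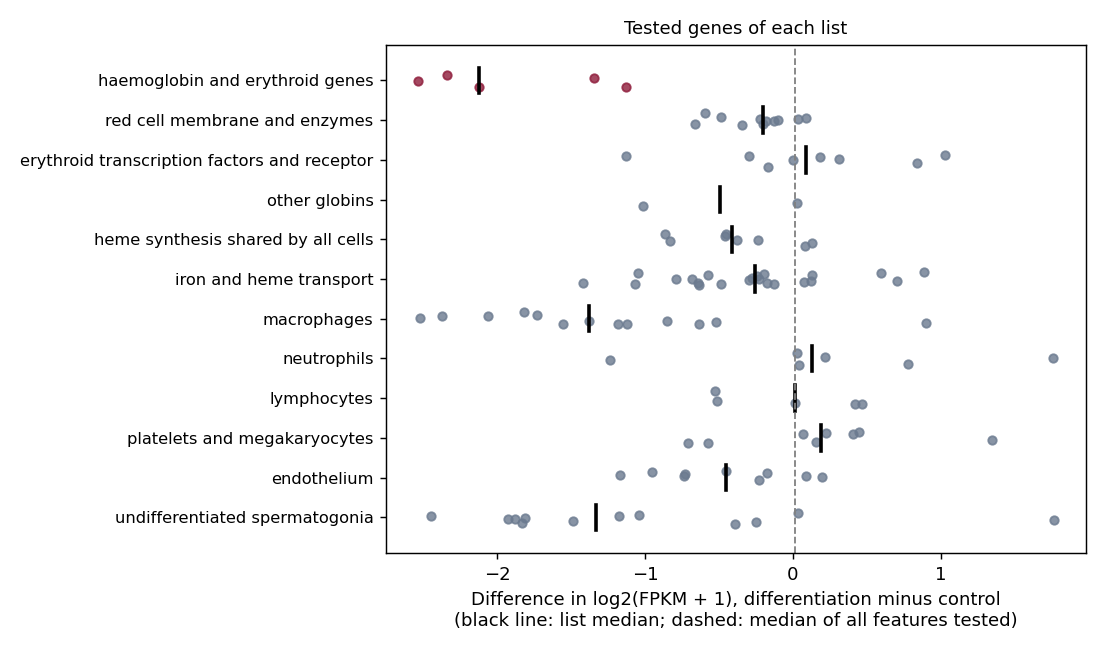
Difference in log2(FPKM + 1), differentiation minus control, of each tested gene (points) by list, with the list median (black line) and the median of all features tested (dashed, 0.01). The 5 genes lie between -2.53 and -1.13, the macrophage markers have a median of -1.38 and the red cell membrane genes one of -0.20.

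The protein-coding features whose pattern over the 4 libraries was most like the summed FPKM of the 5 genes were Cyp11a1, Nr4a1, Gpc3, Gpnmb and Phgdh. Likeness was the Euclidean distance between log2(FPKM + 1) values centred on each feature's mean, over 12853 candidates with a mean of at least 1 FPKM. Cyp11a1, which cleaves the cholesterol side chain in steroid-producing cells, was the nearest, at a distance of 0.0290. It had 16.8 and 16.4 FPKM in control and 2.60 and 2.30 FPKM in differentiation. Nr4a1, a nuclear receptor, followed at 0.0576, with 23.9 and 23.2 FPKM in control and 3.98 and 3.69 FPKM in differentiation. Gpc3 (0.0770), Gpnmb (0.0797) and Phgdh (0.0980) had means of 12.8, 8.26 and 41.2 FPKM in control and 1.69, 0.814 and 7.22 FPKM in differentiation. With 4 libraries in 2 groups, such likeness says little beyond a similar fall.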

How the data were processed

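RNA-seq libraries of mouse spermatogonial stem cells (2 control, 2 differentiation) were made from TRIzol total RNA after ribosomal RNA removal, per the labels' protocols. HISAT2 and the GRCm38 build are named, per the submitters' processing notes. Neither the annotation, the counter, the use of strand nor the treatment of fragments with several matches is stated in the labels used here.

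The authors deposited FPKM of each feature in each library. Their log2 fold changes, also deposited, are quoted only where named. The authors' p-value columns were left out. The 5 genes and the 12 other gene lists were chosen with earlier results of these data known.

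FPKM was multiplied by merged exonic length in GENCODE M21 (31536 of 31600 identifiers matched) to recover fragments. limma 3.58.1 in R 4.3.3 was fitted to log2(FPKM + 1), with group as the only term and an intensity trend in the prior variance, on the 23138 features that averaged at least 0.5 FPKM. It was two-sided, with Benjamini-Hochberg adjustment over all of them and a threshold of 0.05. It had 2 residual degrees of freedom, and the prior added 2.14. Its p-values measure only the spread between these libraries. On simulated data of 23099 features with 200 changed 4-fold, the fit recovered 61% and made 2 calls on unchanged features. The simulation used a fixed noise level and far fewer changed features than the 13094 called here. Its rates therefore do not carry over to the real calls.

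Genes named were the 5 genes, each other globin in the table, a fixed list of red cell genes, up to 4 genes of each other list with the smallest p, and the 5 nearest protein-coding features. Some genes of the lists are counted but not reported here by name. Named besides these, after their values were seen, were Hba-ps4, Aif1, Alas1, Fech, Uros, Urod, Kit and Stra8. Other settings tried were the pseudocount, the low-value filter, library scaling, no trend in the prior, a replicate block, each library left out, summed copies and a limma-voom fit on recovered fragments. Other steps used scipy 1.17.1, numpy 2.4.6, matplotlib 3.10.9 and pandas 2.3.3 in Python 3.11.15.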

Additional observations from a re-analysis of the deposited data

How the results depend on the processing

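Each of the 5 genes was lower in differentiation under every alternative run for it. The mean log2 difference of the 5 genes was -1.89, and it was -2.31 with a pseudocount of 0.1, -2.01 when rescaled without ribosomal-RNA-like features and -2.08 with the copies summed into alpha, beta and Alas2. Leaving out each library in turn gave -1.94 to -1.84. The 6 lower genes of the erythroid lists became 2 to 4 when a library was left out. The 12 lower and 1 higher macrophage markers became 7 and 0 with a filter at a mean of at least 2 FPKM, which tests fewer genes, and the 1 higher became 0 to 1 when a library was left out. The cause of the other changes was not tested. Calls over all features numbered 13094, and 9490 to 14406 under the alternatives. The 6246 lower and 6848 higher became 7266 and 6064 with median centring and 7601 and 5792 with quantile normalization. No scaling moved the median of all features by more than 0.1 on the log2 scale. A replicate block gave 12298 calls, and 5 in place of 6 lower genes of the erythroid lists. The numbers pair libraries by name only: deviations of same-numbered libraries had a correlation of -4.08e-04. Depth limits Hba-a2 most, with 2 and 4 fragments in differentiation, and the difference of the 5 genes rests on 2 libraries a group.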
